A study of Mus musculus with 6 samples.

Results

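The autophagy genes described here are 40 genes picked by symbol from the 55376 genes of the count and FPKM tables. They encode the machinery that starts autophagy, builds and closes the autophagosome, brings cargo to it and degrades it in the lysosome. All 40 were found, and all 40 had enough counts to be tested in every comparison. RNA came from freshly isolated satellite cells (fiSCs), the stem cells of skeletal muscle, sorted from C57BL/6 mice aged 3 months. In RNA immunoprecipitation sequencing (RIP-seq), an antibody pulls a protein out of a cell lysate and the RNA that comes down with it is sequenced. Of the 6 libraries, 2 were made with an anti-CPEB1 antibody (CPEB1 IP), 2 with anti-IgG as the control precipitation (IgG), and 2 from RNA with no antibody (input). The labels name no altered gene and no treatment, and the groups differ in them by the antibody alone. A precipitate reports RNA that came down with the antibody and beads, and does not separate direct binding by CPEB1 from indirect or unspecific recovery.

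Autophagy encloses cytoplasm, protein aggregates or organelles in a growing membrane sheet, which closes into an autophagosome and fuses with the lysosome. A kinase complex around Ulk1 starts the process, a lipid kinase complex marks the membrane, and 2 ubiquitin-like conjugation systems attach proteins of the Atg8 family to it, where they hold cargo receptors such as Sqstm1. Autophagy is known to keep satellite cells in quiescence and to support their activation. CPEB1 binds cytoplasmic polyadenylation elements (CPEs), short U-rich motifs in the 3′ UTRs of mRNAs, and regulates the length of the poly(A) tail and translation.

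CPEs were searched in the annotated 3′ UTRs as 9 motifs on the mRNA strand, of which TTTTAT and TTTTAAT are called canonical here. The other 7 were TTTTACT and the similar TTTTCAT, besides TTTTAAAT, TTTTAACT, TTTTAAGT, TTTTAATT and TTTTAAAGT. For the 9 motifs, the longest match at a position was taken, and a match that overlapped an earlier one was not counted. The canonical motifs were searched on their own, so a TTTTAATT, which contains TTTTAAT, counts as canonical in their share. At least 1 CPE was present in a 3′ UTR of 30 of the 40 autophagy genes (75%), beside 74.4% of the 10886 genes that were tested against IgG and have an annotated 3′ UTR, and 65.8% of all 20923 genes with one. A canonical CPE was present in 26 (65%), beside 66.9% of the tested genes. Of the 9 autophagy genes that were higher in CPEB1 IP than in both IgG and input, only Nbr1, Atg13, Becn1 and Map1lc3b held a CPE. Their sites are shown because they are what CPEB1 could recognise in these mRNAs by sequence. The sequences are read 5′ to 3′ in the sense of the mRNA from the GENCODE M21 transcripts on mm10, with T for U and the motif in capitals. For Becn1, which had 7 CPEs in its longest 3′ UTR, only the site nearest to the 3′ end is given.
Nbr1 site a, chr11:101580834-101580862, plus strand: ccttgcttgctTTTTAATctgatgaatct
Nbr1 site b, chr11:101581088-101581116, plus strand: catgtggatgtTTTTAATgggctgttaaa
Nbr1 site c, chr11:101581359-101581388, plus strand: attttgcataaaTTTTATttaaggagaatc
Nbr1 site d, chr11:101581453-101581481, plus strand: agtagtcgtccTTTTACTgactgtcacag
Nbr1 site e, chr11:101581761-101581790, plus strand: caacactaaagaTTTTATtcatgtttgaga
Atg13 site a, chr2:91675862-91675890, minus strand: ccttccttccgTTTTCATtcactcccttt
Atg13 site b, chr2:91675608-91675637, minus strand: agaaatcagataTTTTATagaagtatgttt
Becn1 site nearest the 3′ end, chr11:101286513-101286542, minus strand: gatttttatttaTTTTATgtgaacacacca
Map1lc3b site, chr8:121592528-121592557, plus strand: ttttcttttacaTTTTATctgtatggctca

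The canonical site e of Nbr1 lay 173 bases before the annotated 3′ end, and its 5 CPEs fell in a 3′ UTR of 1333 bases. The single site of Map1lc3b lay 564 bases before the end, and the nearest one of Atg13 lay 1002 bases before it. Atg101, Map1lc3a, Gabarap, Gabarapl1 and Sqstm1, the other 5 genes that were higher in both comparisons, had none of the 9 motifs in any annotated 3′ UTR. The remaining genes without a match were Ulk1, Pik3r4, Atg2a, Atg4b and Tfeb. A match is a description of the letters and does not show that the site is bound.

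Counts on genes ranged from 1284716 to 4941653 per library and were lowest in IgG. The total that each deposited FPKM is divided by was larger than the sum of gene counts, and genes took 69.5% to 69.9% of that total in CPEB1 IP, 39.1% to 39.5% in IgG and 71.1% to 79.8% in input. The 2 IgG libraries thus stood apart from the other 4. All 11 satellite cell markers were detected in every group, with a summed FPKM of 2749 to 3309.8 in CPEB1 IP and input and 1535 to 1567 in IgG. Markers of 7 other cell types (muscle fibre, endothelial, haematopoietic, fibro-adipogenic, smooth muscle and pericyte, Schwann and erythroid) summed to between 4.16 and 224 for each type, and several of these sums differed between the groups. Endothelial markers summed to 90.6 to 105 FPKM in CPEB1 IP, 38.0 to 42.7 in IgG and 8.41 to 12.2 in input, and erythroid markers to 56.7 to 71.1, 32.9 to 34.7 and 4.16 to 8.94. Because genes took a smaller part of the FPKM total in IgG, these sums are not on the same scale in every group. In the count test used below, 1 of 5 endothelial and 0 of 2 erythroid markers tested were higher in CPEB1 IP than in IgG, as were 7 of 11 satellite cell markers. So were 1 of 5 muscle fibre, 2 of 5 fibro-adipogenic, 1 of 4 smooth muscle and pericyte and 1 of 3 Schwann markers. Of 4 haematopoietic markers tested, 1 was higher and 3 were lower, and no marker of the other lists was lower. No marker was without a count in any group. Below, CPM is the count scaled to library size after TMM scaling of all 6 libraries, so that 1 gene can be compared between libraries. TMM assumes that most genes tested do not differ between libraries, which was not tested here. Higher and lower in the count test are therefore relative to the bulk of the genes tested. FPKM, which also divides by exon length, is used where levels of different genes are compared, except for the order of genes in the plot of CPM.

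To ask which autophagy mRNAs came down with CPEB1, CPEB1 IP was first compared with IgG. Of the 40 genes, 13 were higher in CPEB1 IP, 1 was lower and 26 did not pass the threshold, an adjusted p under 0.05 by the quasi-likelihood test of edgeR, with Benjamini-Hochberg correction over all genes tested. Over all 12124 genes tested, 14.7% were higher and 18.7% were lower. The median log2 fold change of the 40 genes was 0.27, beside -0.01 over all genes tested. Most of the differences were small: 11 of the 13 higher genes had a log2 fold change under 0.6, and the median of the 13 was 0.52. Nbr1 and Atg101 were the exceptions, at 1.70 and 1.14. Both CPEB1 IP libraries were above both IgG libraries in CPM for 19 of the 40 genes, a pattern seen in 35.8% of all genes tested, and below them for 4, beside 30.8%.

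Some counts of calls changed with the settings of the fit. RLE size factors ended none of the 14 calls, counts without TMM ended 2 and DESeq2 ended 5. When genes with low counts stayed in the fit, 42045 genes were tested, of which 3513 were called higher and 2336 lower. In the main fit these were 1779 and 2265 of 12124. The median of the same 12124 genes moved from -0.01 to 0.39. The autophagy genes then had a median of 0.67, with 18 higher and none lower. In both fits they stood 0.28 above the median of the same genes. With either CPEB1 IP library left out, Atg4a and Atg4c had too few counts to be tested over IgG. Without the deeper one, replicate 2, the median of the 38 autophagy genes tested was 0.055. The calls that DESeq2 did not make were those of Atg13, Becn1, Gabarapl2 and Tfe3 as higher and of Atg2b as lower.

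Against input, the question was whether an mRNA was over-represented in the precipitate relative to the cell's own RNA. Here 11 of the 40 genes were higher in CPEB1 IP and 8 lower, where 17.0% and 15.8% of 12171 genes tested were. The median log2 fold change was 0.04, beside -0.00377 over all genes. Both CPEB1 IP libraries were above both input libraries for 17 genes, beside 31.3% of all genes tested, and below for 16, beside 36.0%. Without CPEB1 IP replicate 1, 7 genes were higher and 1 was lower. Without CPEB1 IP replicate 2, 6 were higher and 5 were lower. Without input replicate 1, 13 were lower. DESeq2 did not call Atg13 and Atg101 higher, nor Atg4a, Atg4c and Wipi1 lower. Cell type markers moved with this comparison. All 5 endothelial markers, 3 of 3 Schwann and 2 of 2 erythroid markers tested were higher in CPEB1 IP than in input. So were 3 of 4 fibro-adipogenic, 1 of 3 haematopoietic and 2 of 6 muscle fibre markers. Of 11 satellite cell markers, 5 were lower and 1, Myod1, was higher (log2 fold change 1.31 ± 0.13). Of 4 smooth muscle and pericyte markers, 3 were lower and 0 higher. The log2 fold change was 3.94 ± 0.23 for Cldn5, a tight junction protein of endothelial cells, -1.84 ± 0.13 for Pax7, the transcription factor that marks satellite cells, and -2.22 ± 0.14 for Cdh15, their cell adhesion protein. The part of these markers in the calls over input was not tested.

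IgG against input showed how the control precipitate alone differed from the cell's RNA, and 3 autophagy genes were higher and 13 lower, where 21.4% and 19.4% of 12980 genes tested were. The median log2 fold change was -0.29, beside 0.03 over all genes. DESeq2 ended 9 of the 16 calls, that of Atg2a as higher and 8 as lower. The latter were Atg101, Pik3r4, Uvrag, Wipi1, Atg4a, Atg10, Atg16l2 and Bnip3. Counts without TMM ended 4, those of Atg101, Uvrag, Atg16l2 and Bnip3. Both IgG libraries were above both input libraries for 8 genes, beside 36.6% of all genes tested, and below for 21, beside 34.2%. The lower count fell to 5 without IgG replicate 2 and to 8 without input replicate 2. All 5 endothelial and 2 erythroid markers tested were higher in IgG than in input too. So were 4 of 5 fibro-adipogenic, 3 of 4 haematopoietic, 2 of 6 muscle fibre and 1 of 3 Schwann markers. Of 11 satellite cell markers, 8 were lower and 1, Myod1, was higher (log2 fold change 0.93 ± 0.13). Of 4 smooth muscle and pericyte markers, 3 were lower and 0 higher. The 3 comparisons share libraries in pairs, so their values are given side by side and are not independent of each other.

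**Figure D1:**
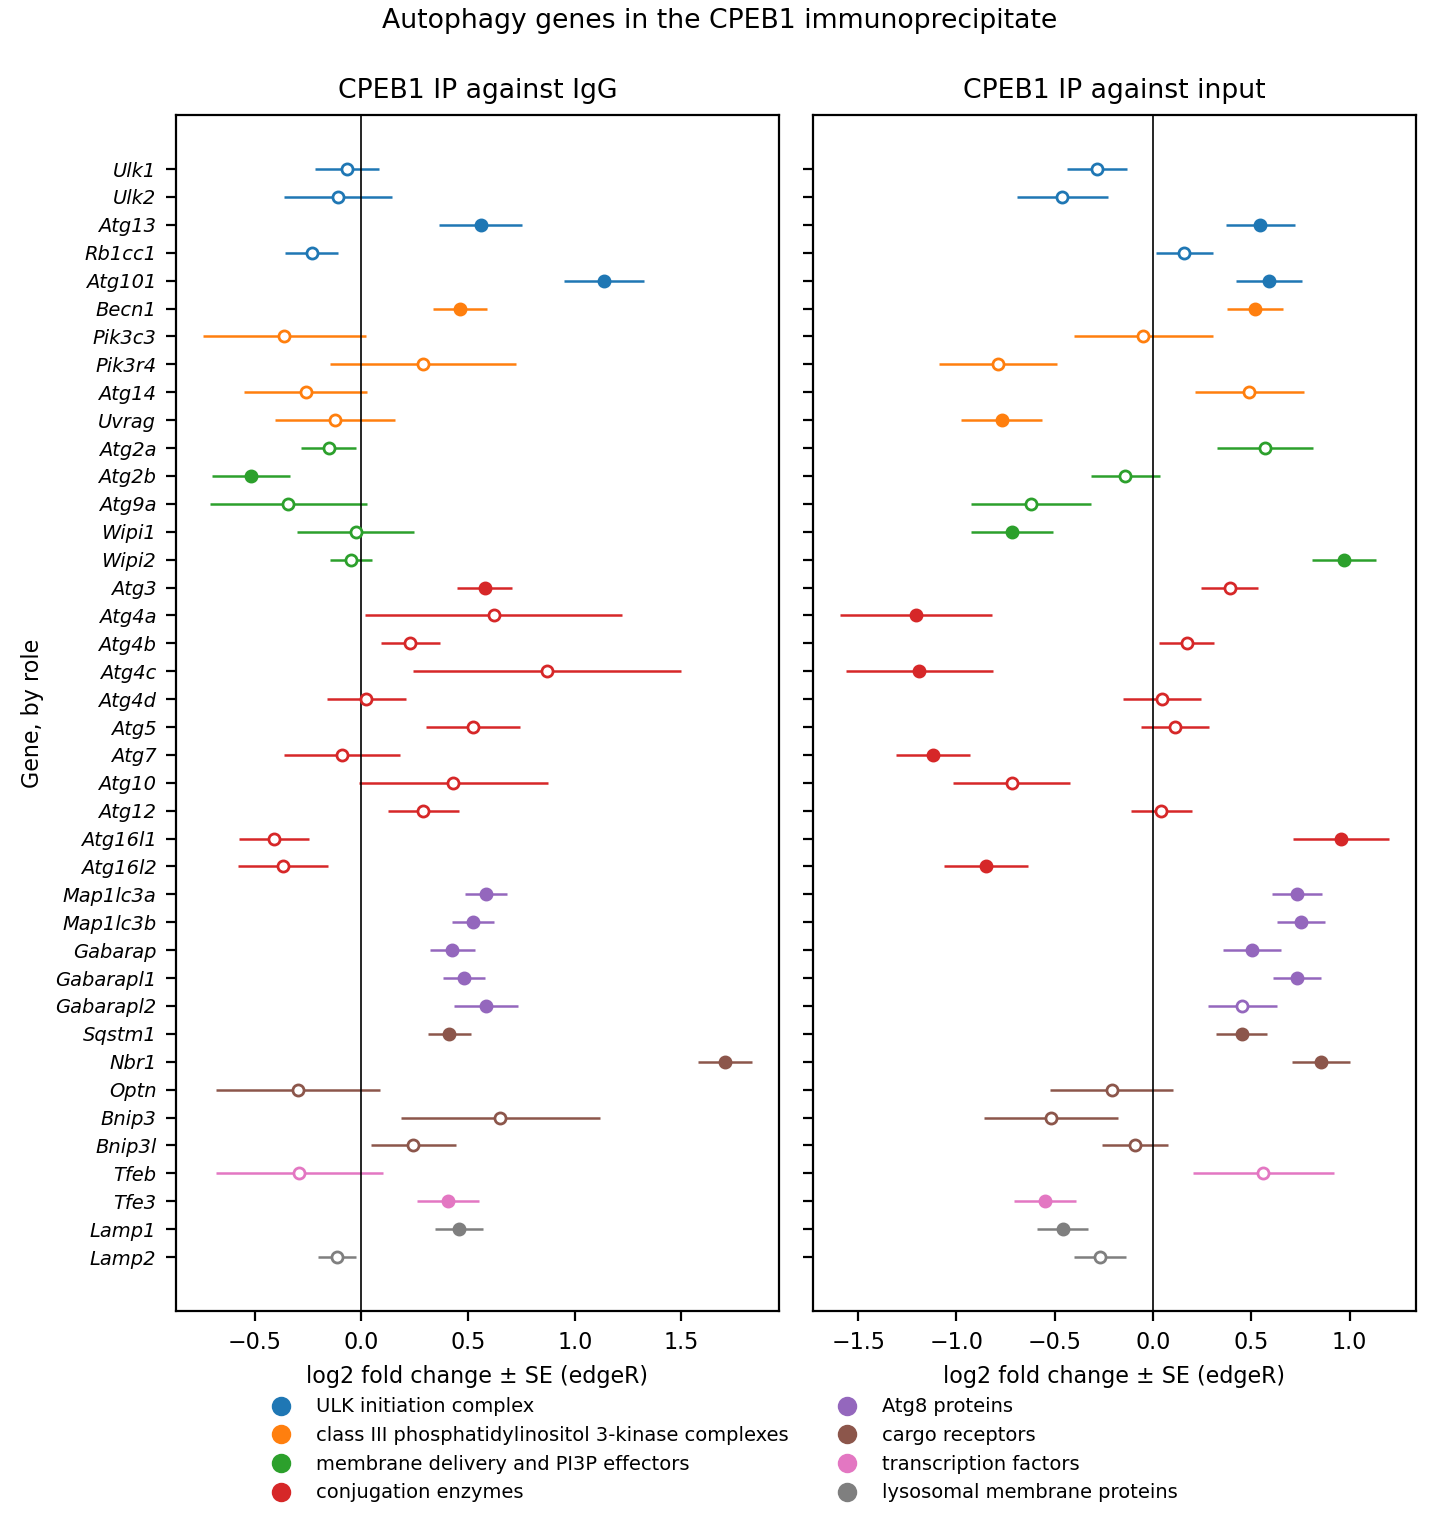
The log2 fold change of each of the 40 autophagy genes with its standard error, from edgeR, in CPEB1 IP against IgG (left) and against input (right). Genes are ordered and coloured by role, and filled circles mark an adjusted p under 0.05. The 5 Atg8 genes lie to the right of 0 in both panels, and Nbr1 has the largest value over IgG, 1.70.

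The Ulk1 complex receives nutrient signals and starts autophagy. Of its 5 genes, Atg13 and Atg101 were higher in CPEB1 IP than in IgG and than in input, and Ulk1, Ulk2 and Rb1cc1 passed the threshold in neither comparison. Atg101, which encodes the partner of Atg13 that stabilises it in the complex and lies at chr15:101284272-101290945 on the plus strand, had 67.9 and 73.5 CPM in CPEB1 IP, 29.6 and 32.0 CPM in IgG, with 44.2 and 53.5 CPM in input. The 3 groups did not overlap, with CPEB1 IP highest and IgG lowest. Its log2 fold change was 1.14 ± 0.19 (SE, n = 2 and 2 libraries) over IgG (adjusted p = 0.000125) and 0.59 ± 0.17 over input (adjusted p = 0.0162), and that of IgG over input was -0.66 ± 0.26 (adjusted p = 0.0373). The call over IgG held under all 11 alternative fits. The call over input was lost with either CPEB1 IP library left out and in DESeq2. That of IgG was lost with either IgG library or input replicate 2 left out, without TMM and in DESeq2. Atg13, the adaptor that links the kinase to the complex, had 51.7 and 56.6 CPM in CPEB1 IP, 33.4 and 37.1 in IgG, with 39.3 and 37.8 in input. Its CPEB1 IP libraries were above the other 4, which lay close together. The log2 fold change of Atg13 was 0.56 ± 0.19 over IgG (adjusted p = 0.0305) and 0.55 ± 0.18 over input (adjusted p = 0.0294). Neither call of Atg13 held when either CPEB1 IP library was left out, and the call over IgG was also lost without IgG replicate 1.

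The kinases themselves passed the threshold against neither control. Over IgG the log2 fold change was -0.07 ± 0.15 for Ulk1 and -0.11 ± 0.25 for Ulk2, and over input it was -0.28 ± 0.15 and -0.46 ± 0.23. Rb1cc1 (Fip200), the large scaffold of the complex, had -0.23 ± 0.12 over IgG and 0.16 ± 0.15 over input. Within the complex, Ulk2 had 9 CPEs and Rb1cc1 had 7 in the longest 3′ UTR, while Ulk1 and Atg101 had none.

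The class III phosphatidylinositol 3-kinase complexes make the lipid PI3P on the growing membrane. Becn1, the Beclin 1 scaffold that regulates the kinase, was higher in CPEB1 IP, alone among their 5 genes. It had 149.99 and 159.98 CPM in CPEB1 IP, 98.7 and 117 in IgG, with 120.3 and 104 in input. The CPEB1 IP libraries were above the other 4, while IgG and input overlapped. Its log2 fold change was 0.46 ± 0.13 over IgG (adjusted p = 0.00757) and 0.52 ± 0.14 over input (adjusted p = 0.0151). Leaving out CPEB1 IP replicate 2 ended the first call, and leaving out either CPEB1 IP library ended the other. Becn1 shares part of its span on the opposite strand with Cntd1, and whether counting used strand is not given in the sources used here.

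Pik3c3, the catalytic subunit, and Pik3r4, its regulatory subunit, were among the least abundant of the 40 genes, at a mean of 1.95 and 1.44 FPKM in input, and passed the threshold against neither control. Atg14, which directs the complex to autophagosome formation, had a log2 fold change of -0.26 ± 0.29 over IgG and 0.49 ± 0.28 over input. Uvrag, which takes the place of Atg14 in the complex on endosomes, had 21.7 and 22.5 CPM in CPEB1 IP, 27.3 and 18.9 in IgG, with 39.6 and 38.7 in input. Both precipitates were below input, and CPEB1 IP fell within the range of IgG. Uvrag was lower than input in CPEB1 IP (log2 fold change -0.77 ± 0.21, adjusted p = 0.0122) and in IgG (-0.76 ± 0.29, adjusted p = 0.0329), and had -0.12 ± 0.28 for CPEB1 IP over IgG. The call of Uvrag in CPEB1 IP did not hold with either CPEB1 IP library left out. That in IgG did not hold without IgG replicate 2, without input replicate 1, without TMM or in DESeq2.

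Of the 5 genes for membrane delivery and PI3P effectors, none was higher in CPEB1 IP than in IgG. Atg2b, a lipid transfer protein that feeds the growing membrane, was the only autophagy gene that was lower, with 42.1 and 49.5 CPM in CPEB1 IP, 55.4 and 71.4 in IgG, with 54.0 and 51.6 in input. CPEB1 IP was below the other 4 libraries, and IgG was above input. This was a log2 fold change of -0.52 ± 0.18 over IgG (adjusted p = 0.0330) and -0.14 ± 0.18 over input (adjusted p = 0.571). The call held in 4 of the 11 alternative fits, and was lost with either CPEB1 IP library or IgG replicate 2 left out. Its paralog Atg2a had -0.15 ± 0.13 over IgG and 0.57 ± 0.25 over input, with input libraries that lay far apart at 126 and 63.3 CPM.

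Wipi2, which binds PI3P and recruits the lipid conjugation machinery, showed a different pattern, being high in both precipitates. It had 337 and 381 CPM in CPEB1 IP, 353 and 358 in IgG, with 220.4 and 158 in input. The precipitates overlapped each other and lay above input. Its log2 fold change was 0.97 ± 0.16 over input (adjusted p = 0.000761), -0.05 ± 0.10 over IgG (adjusted p = 0.754), and 0.90 ± 0.16 for IgG over input (adjusted p = 1.95e-05). The related Wipi1 was lower than input in CPEB1 IP (-0.72 ± 0.21, adjusted p = 0.0187) and in IgG (-0.80 ± 0.28, adjusted p = 0.0202), and had -0.03 ± 0.28 between the precipitates. The call of Wipi1 in CPEB1 IP did not hold without CPEB1 IP replicate 1, and that in IgG did not hold without IgG replicate 2. Neither held in DESeq2. Atg9a, the scramblase carried in vesicles to the growing membrane, passed the threshold in none of the 3 comparisons.

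The conjugation enzymes attach Atg12 to Atg5 and Atg8 proteins to lipid. Of the 11 genes, only Atg3, the E2-like enzyme that transfers Atg8 proteins to phosphatidylethanolamine, was higher in CPEB1 IP than in IgG. Atg3 had 142 and 164 CPM in CPEB1 IP, 103 and 94.0 in IgG, with 110.2 and 133 in input. The CPEB1 IP libraries were above the other 4, and the log2 fold change was 0.58 ± 0.13 over IgG (adjusted p = 0.00185) and 0.39 ± 0.15 over input (adjusted p = 0.0581). Without CPEB1 IP replicate 2 the adjusted p over IgG was 0.0674. Atg5, the acceptor of Atg12, had a log2 fold change of similar size over IgG, 0.52 ± 0.22, that did not pass the threshold (adjusted p = 0.0762), with IgG libraries at 24.3 and 38.6 CPM.

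Against input, Atg7, Atg4a, Atg4c and Atg16l2 were lower in CPEB1 IP. Atg7, the E1-like enzyme that activates both Atg12 and the Atg8 proteins, had 25.4 and 26.4 CPM in CPEB1 IP, 33.4 and 19.7 in IgG, with 62.6 and 54.5 in input. Both precipitates were below input, and the CPEB1 IP libraries fell between the IgG libraries. Over input, the log2 fold change of Atg7 was -1.12 ± 0.19 in CPEB1 IP (adjusted p = 0.000741) and -1.15 ± 0.27 in IgG (adjusted p = 0.000651), where the latter call was lost without IgG replicate 2. Of the proteases that trim Atg8 proteins, Atg4a and Atg4c were lower than input in CPEB1 IP, by -1.21 ± 0.39 on the log2 scale for Atg4a (adjusted p = 0.0291) and by -1.19 ± 0.37 for Atg4c (adjusted p = 0.0270). Neither call held without CPEB1 IP replicate 1, without input replicate 2 or in DESeq2. These 2 genes rested on few counts, with 8 and 33 counts in CPEB1 IP and 38 and 46 in input for Atg4a. For both genes IgG was lower than input as well, by -1.94 for Atg4a (adjusted p = 0.00521) and -2.18 for Atg4c (adjusted p = 0.00296). These calls of IgG were lost without IgG replicate 2 and without input replicate 2. That of Atg4a was also lost in DESeq2. Atg4a has a near-identical processed copy, Atg4a-ps, with 0 to 5 counts per library. The proteases Atg4b and Atg4d passed the threshold in none of the 3 comparisons.

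The scaffold genes Atg16l1 and Atg16l2, whose products bring the Atg12 and Atg5 conjugate to the membrane, went in opposite directions against input. Atg16l1 had 60.8 and 67.7 CPM in CPEB1 IP, 94.9 and 69.9 in IgG, with 44.8 and 23.9 in input. IgG was highest and input lowest, with no overlap between the groups. Over input, Atg16l1 had a log2 fold change of 0.95 ± 0.24 in CPEB1 IP (adjusted p = 0.00970) and 1.25 ± 0.25 in IgG (adjusted p = 0.000104). Atg16l2 had 39.2 and 45.6 CPM in CPEB1 IP and 97.0 and 62.7 in input, a log2 fold change of -0.85 ± 0.21 (adjusted p = 0.00868) that did not pass without CPEB1 IP replicate 1 (adjusted p = 0.0566). IgG was lower than input for Atg16l2 too (-0.60, adjusted p = 0.0420). This call was lost without IgG replicate 2, without input replicate 1, without TMM and in DESeq2. Atg10 and Atg12 passed the threshold in neither comparison of CPEB1 IP.

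The Atg8 genes encode the ubiquitin-like proteins that coat the autophagosome membrane and hold cargo receptors. All 5 were higher in CPEB1 IP than in IgG, with log2 fold changes between 0.43 and 0.58, and 4 of the 5 were higher than in input, between 0.50 and 0.75. In none of the 5 did IgG differ from input past the threshold, where log2 fold changes lay between -0.24 and 0.13. Both CPEB1 IP libraries were above the 2 IgG and the 2 input libraries in every one of these genes. Over all genes tested, 35.8% were above both IgG libraries and 31.3% above both input libraries, and the share above all 4 was not counted. The 5 genes had 23.1 to 180 FPKM in input. Of all genes with at least 20 FPKM there, 51.3% were higher over IgG and 26.8% over input. Map1lc3a (LC3A) had 491 and 436 CPM in CPEB1 IP, 295 and 294 in IgG, with 284 and 293 in input. Its controls lay close together and CPEB1 IP stood above them by 0.58 ± 0.10 over IgG (adjusted p = 0.000174) and 0.73 ± 0.13 over input (adjusted p = 0.000858) on the log2 scale.

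Map1lc3b (LC3B), the form most used as a marker of autophagosomes, had 600.0 and 609 CPM in CPEB1 IP, 369 and 434 in IgG, with 370.1 and 372 in input. The CPEB1 IP libraries were nearly equal and above the rest, with log2 fold changes of 0.52 ± 0.10 over IgG (adjusted p = 0.000380) and 0.75 ± 0.12 over input (adjusted p = 0.000545). Part of the Map1lc3b span is also annotated to Gm20388 on the same strand and to Zcchc14 on the other. Gabarapl1 had 448 and 443 CPM in CPEB1 IP, 285 and 325 in IgG, with 264 and 292 in input, which was 0.48 ± 0.10 over IgG (adjusted p = 0.000847) and 0.73 ± 0.12 over input (adjusted p = 0.000761). These 3 genes passed in both comparisons under all 11 alternative fits.

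Gabarap and Gabarapl2 belong to the other Atg8 subfamily with Gabarapl1, which acts mainly late in autophagosome maturation. Gabarap had 305 and 322 CPM in CPEB1 IP, 206 and 240.4 in IgG, with 196 and 263 in input, with log2 fold changes of 0.43 ± 0.11 over IgG (adjusted p = 0.00376) and 0.50 ± 0.15 over input (adjusted p = 0.0187). The call of Gabarap over input did not hold with either CPEB1 IP library left out. Gabarapl2 had 91.7 and 98.7 CPM in CPEB1 IP, 63.8 and 58.3 in IgG, with 59.2 and 85.3 in input. Its input libraries lay far apart, and its log2 fold change was 0.58 ± 0.15 over IgG (adjusted p = 0.00509) but 0.46 ± 0.17 over input, short of the threshold (adjusted p = 0.0614). The call of Gabarapl2 over IgG did not hold without CPEB1 IP replicate 2. A near-identical copy of Gabarapl2, Gm3724, had 14 to 31 counts per library, and reads could be shared between them.

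**Figure D2:**
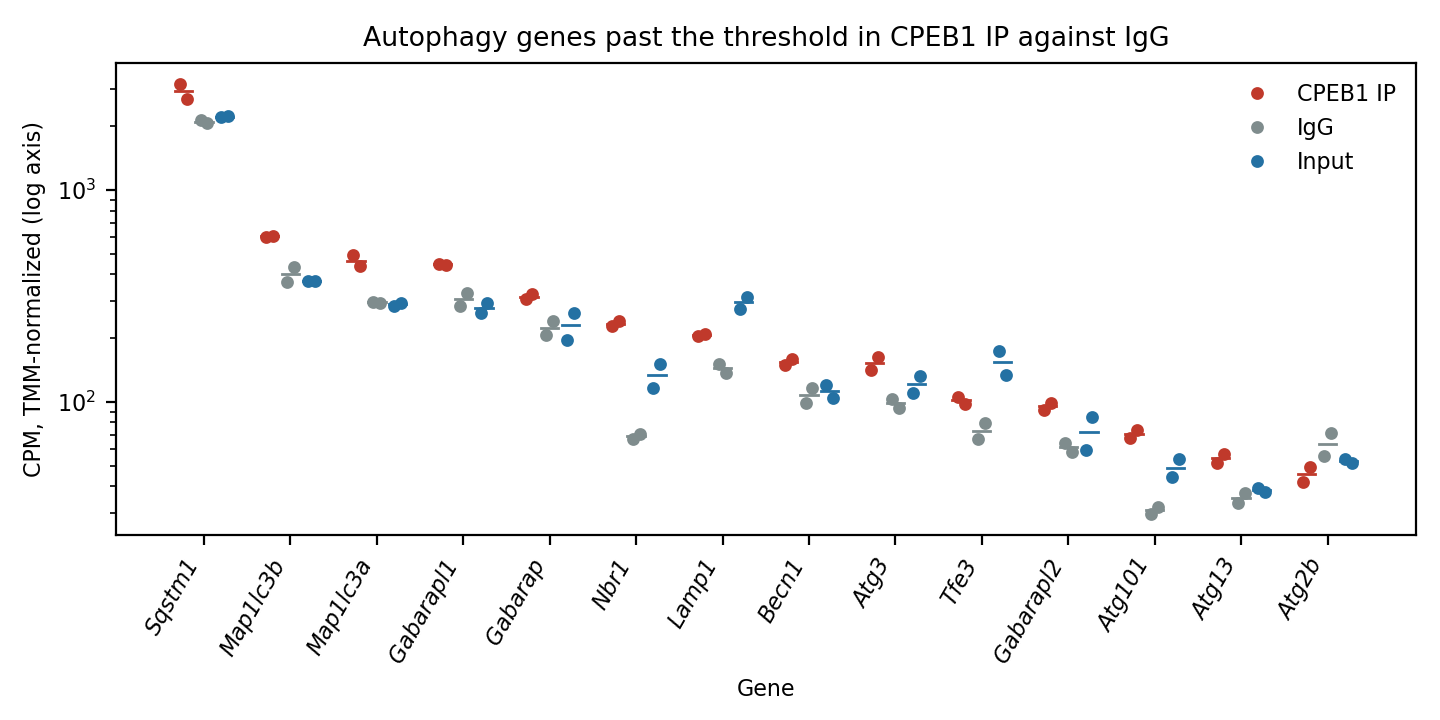
TMM-normalized CPM (log axis) in each library for the 14 autophagy genes past the threshold in CPEB1 IP against IgG, ordered by mean CPM in CPEB1 IP. Points are the 2 libraries of a group and short lines their mean. CPEB1 IP is above both controls for the Atg8 genes, Sqstm1, Nbr1, Becn1, Atg3, Atg101 and Atg13, between them for Lamp1 and Tfe3, and below both for Atg2b.

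The cargo receptors bind ubiquitinated or damaged cargo at 1 end and Atg8 proteins at the other. Nbr1, at chr11:101552149-101581951 on the plus strand, encodes a receptor for ubiquitinated aggregates and peroxisomes and had the largest difference from IgG among the 40 genes. Its libraries had 228 and 239.7 CPM in CPEB1 IP, 66.8 and 70.7 in IgG, with 117 and 152 in input. The groups did not overlap, and CPEB1 IP was highest and IgG lowest. Nbr1 was 3.26-fold higher than in IgG, a log2 fold change of 1.70 ± 0.13 (adjusted p = 5.83e-09), and 1.81-fold higher than in input, 0.86 ± 0.15 (adjusted p = 0.000801). IgG was below input (log2 fold change -0.96 ± 0.19, adjusted p = 0.000101). Both calls of CPEB1 IP held under all 11 alternative fits, with log2 fold changes from 1.64 to 2.10 over IgG and from 0.66 to 1.04 over input. Its 5 CPEs are listed above.

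Sqstm1 (p62), the receptor for ubiquitinated proteins that is itself degraded by autophagy, was the most abundant of the 40 genes, at 486 ± 31.4 FPKM (SD, n = 2) in input. It had 3157 and 2698 CPM in CPEB1 IP, 2135 and 2068 in IgG, with 2199.9 and 2231 in input. CPEB1 IP was above the controls, which lay close together, by 0.41 ± 0.10 over IgG (adjusted p = 0.00341) and 0.45 ± 0.13 over input (adjusted p = 0.0174). The call of Sqstm1 over input did not hold with either CPEB1 IP library left out, nor with the replicate number as a block (adjusted p = 0.0773). Optn, a receptor for ubiquitinated bacteria and mitochondria, and the mitophagy receptors Bnip3 and Bnip3l had log2 fold changes over IgG of -0.30 ± 0.38, 0.65 ± 0.47 and 0.24 ± 0.20, none past the threshold. Bnip3 had few counts, at 4.56 to 18.3 CPM per library, and was lower in IgG than in input (-1.29, adjusted p = 0.0309). This call was lost without IgG replicate 1, without input replicate 2, without TMM and in DESeq2. Near-identical copies are annotated for Bnip3, with 0 counts, and for Bnip3l, with 3 to 36 counts per library.

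Tfe3 and Tfeb encode transcription factors that switch on autophagy and lysosome genes. Tfe3 had 105 and 98.3 CPM in CPEB1 IP, 66.8 and 79.4 in IgG, with 173 and 134 in input. CPEB1 IP lay between the controls, with a log2 fold change of 0.40 ± 0.15 over IgG (adjusted p = 0.0371) and -0.55 ± 0.16 over input (adjusted p = 0.0184). Its call over IgG held in 5 of the 11 alternative fits, and was lost with either CPEB1 IP library or IgG replicate 1 left out, and its call against input was lost with either CPEB1 IP library left out. Tfeb had the lowest level of the 40 genes, with a mean of 0.874 FPKM in input, and had -0.29 ± 0.39 over IgG and 0.56 ± 0.36 over input.

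Lamp1 and Lamp2 encode the main glycoproteins of the lysosomal membrane. Lamp1 showed the pattern of Tfe3, with 205 and 209 CPM in CPEB1 IP, 150.4 and 138 in IgG, with 276 and 314 in input. The groups did not overlap, and the log2 fold change of CPEB1 IP was 0.46 ± 0.11 over IgG (adjusted p = 0.00346) and -0.46 ± 0.13 over input (adjusted p = 0.0157). The call of Lamp1 against input did not hold with either CPEB1 IP library left out. IgG was below input for Lamp1 (log2 fold change -1.04 ± 0.16, adjusted p = 1.90e-06) and for Tfe3 (-1.08 ± 0.19, adjusted p = 2.04e-05). Lamp2 had 591 and 576 CPM in CPEB1 IP and 582 and 624 in IgG, which overlapped, with 654 and 804 in input, which was higher than both without passing the threshold against CPEB1 IP (-0.27 ± 0.13, adjusted p = 0.131).

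Set side by side, the comparisons with IgG and with input, which share the CPEB1 IP libraries, named 9 of the 40 genes as higher each time: Atg13, Atg101, Becn1, Map1lc3a, Map1lc3b, Gabarap, Gabarapl1, Sqstm1 and Nbr1. Among these, IgG was lower than input for Nbr1 and Atg101, and for the other 7 the difference between IgG and input did not pass the threshold. Against neither control did 18 genes pass, and their level in input ranged from 0.874 to 56.5 FPKM. The share of all genes tested that were higher in both comparisons, or passed in neither, was not counted. The 9 and the 18 therefore have no background share beside them.

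The fold change over IgG moved with the level of the gene. Among genes with a mean of at least 20 FPKM in input, 51.3% of 2025 genes tested were higher in CPEB1 IP than in IgG, and so were 9 of the 10 autophagy genes at that level, Lamp2 being the other. Below 5 FPKM, 1.86% of 6194 genes were higher, and none of 14 autophagy genes. Between 5 and 10 FPKM these values were 9.82% and 1 of 9 genes, and between 10 and 20 FPKM 24.3% and 3 of 7. The rank correlation of the log2 fold change over IgG with the input FPKM was 0.53 across the 40 genes and 0.63 across the 12124 genes. Against input, that correlation was 0.40 across the 40 genes and 0.00423 across all genes. With summed exon length, the rank correlation of the fold change over IgG was -0.60 across the 40 genes and -0.28 across all. These correlations are across genes of the same libraries, which are not independent replicates, and depth, length and level enter both sides. The part of level and length in the calls was not tested.

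**Figure D3:**
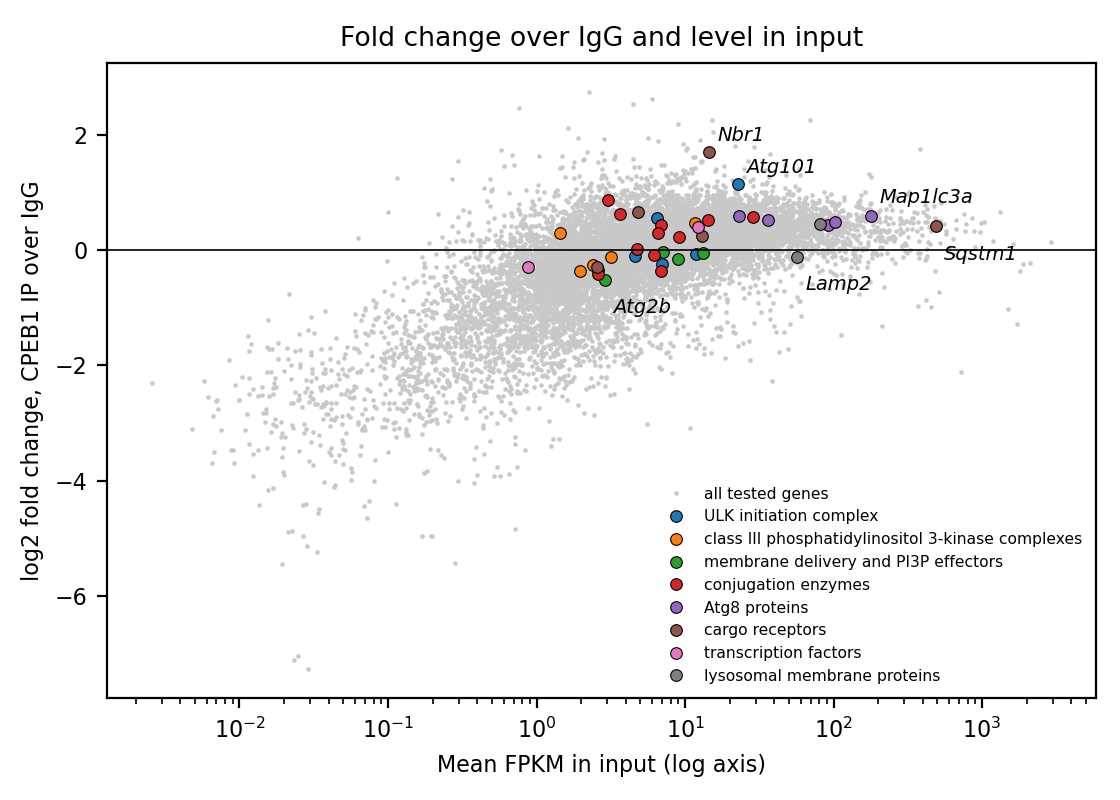
Fold change of CPEB1 IP over IgG (log2) against the mean FPKM in input (log axis), for all genes tested (grey) and the autophagy genes coloured by role. The 263 genes with an input FPKM of 0 are not drawn. Genes under 5 FPKM lie mostly below 0 and genes above 20 FPKM mostly above it. Among the autophagy genes, Nbr1 and Atg101 lie highest.

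A fold criterion was also applied, after that of the study, in which the FPKM had to be more than 2 times as high in CPEB1 IP as in IgG in each experiment. Here 1 was added to every FPKM first, which the study does not state. By this ratio 13 autophagy genes passed, where 3.35% of all 55376 genes and 14.4% of the 12124 tested did. Of the 13, 12 were also higher in the count test, where 12.1% of the tested genes met both. With no pseudocount 18 autophagy genes passed the ratio and 13 both criteria, and with a pseudocount of 5 the number was 7 for each. The ratio was 4.60 and 4.89 for Nbr1 and 3.38 and 3.63 for Atg101. For the Atg8 genes it ranged from 2.21 to 2.75, and for Sqstm1 it was 2.38 and 2.25. Atg5 passed the ratio, at 2.65 and 2.02, but not the count test, and Tfe3 passed the count test but with 1 added had ratios of 2.15 and 1.88. When FPKM was built from the counts on TMM library sizes instead, only Nbr1 (3.19 and 3.18) and Atg101 (2.23 in both) stayed above 2, and the Atg8 genes fell to between 1.34 and 1.67.

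CPE content was set beside these fold changes. Of the 30 genes with a CPE, 8 were higher over IgG (median log2 fold change 0.13), and of the 10 without, 5 were (median 0.35). Among all genes tested with a 3′ UTR, 14.9% of those with a CPE were higher (median -0.01) and 19.8% of those without (median 0.14). Over input, 6 of the 30 autophagy genes with a CPE were higher and 8 lower (median -0.12). Of the 10 without, 5 were higher and none lower (median 0.53). Among all genes tested over input with a 3′ UTR, 18.4% of 7979 with a CPE were higher and 1326 lower (median 0.01). Of 2877 without, 16.6% were higher and 473 lower (median -0.04). Spearman's rank correlation between the fold change over IgG and CPE number in the longest 3′ UTR was -0.08 across the 40 genes and -0.16 across 10886. These are descriptions over 40 genes, and no test was run on them. Becn1 with 7 CPEs and Nbr1 with 5 were higher, while Lamp2 and Rb1cc1 with 7 each, Ulk2 with 9 and Atg16l2 with 9 were not.

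**Figure D4:**
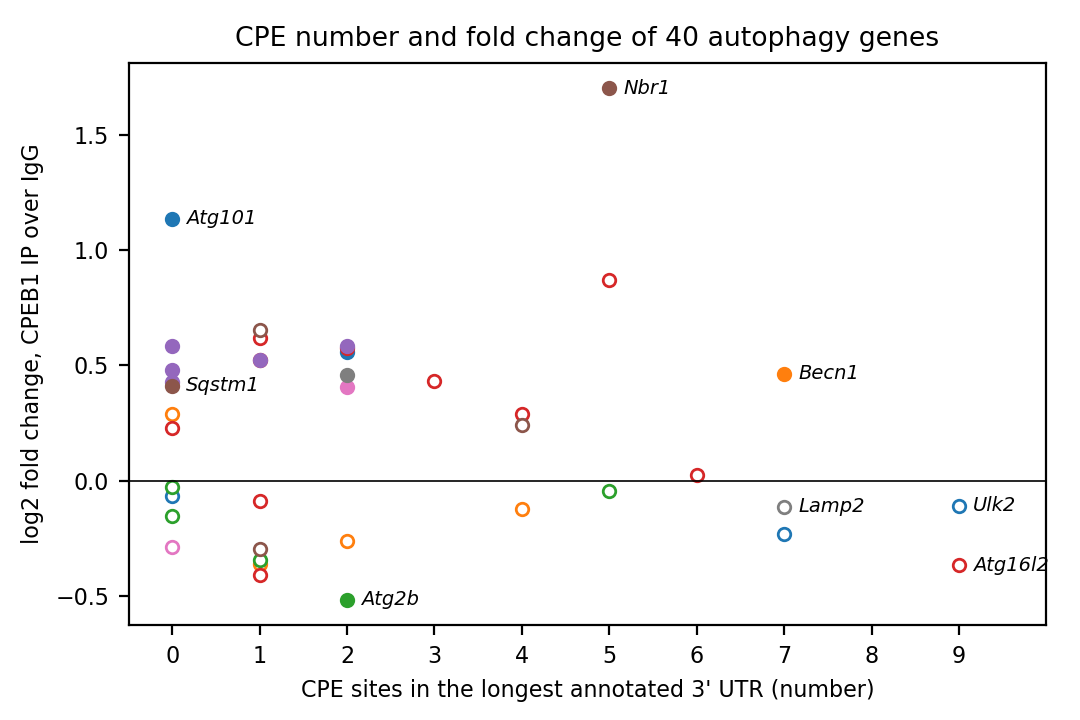
Fold change of CPEB1 IP over IgG (log2) against the number of CPEs in the longest annotated 3′ UTR, 1 circle for each of the 40 autophagy genes, coloured by role as in the plot of fold changes and filled where the adjusted p is under 0.05. Genes above 0 occur at every count from 0 to 7, and the 2 genes with 9 CPEs, Ulk2 and Atg16l2, lie below 0.

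Other genes of the pathway were counted in 3 further lists. Of 49 tested genes that act in autophagy outside the 40 (regulators, selective receptors, tethers and fusion factors), 10 were higher and 3 lower over IgG (median log2 fold change 0.05), beside 14.7% and 18.7% of all genes tested, and 4 were higher and 10 lower over input (median -0.06), beside 17.0% and 15.8%. The 3 lower over IgG fell to 1 without CPEB1 IP replicate 1 and to 0 without CPEB1 IP replicate 2 or IgG replicate 2, and DESeq2 called 6 higher and 0 lower. Over input, 1 was higher and 5 were lower without CPEB1 IP replicate 1, 2 and 5 without replicate 2, 8 were higher without input replicate 1 and 11 without input replicate 2. Tollip, an adaptor for ubiquitinated cargo, had 247 and 235 CPM in CPEB1 IP, 101 and 99.1 in IgG, with 194 and 185 in input, a log2 fold change of 1.20 ± 0.12 over IgG (adjusted p = 3.49e-07) and 0.40 ± 0.13 over input (adjusted p = 0.0312). Plekhm1, which tethers autophagosomes to lysosomes, was 1.20 ± 0.21 above IgG (adjusted p = 0.000211) and 1.42 ± 0.18 above input (adjusted p = 0.000101). Tollip and Plekhm1 thus joined the 9 genes that exceeded both controls, with IgG below input for Tollip and overlapping it for Plekhm1. The calls of Plekhm1 and that of Tollip over IgG held under all 11 alternative fits, while that of Tollip over input held in 4 and was lost with either CPEB1 IP library left out and with the replicate number as a block (adjusted p = 0.0697).

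Of 28 lysosomal hydrolase and membrane protein genes tested, 11 were higher and none lower over IgG (median log2 fold change 0.33), beside 14.7% and 18.7% of all genes tested, while of 29 tested over input, 1 was higher and 11 were lower (median -0.49), beside 17.0% and 15.8%. Asah1, Ctsz, Gaa and Hexa, 4 genes in all, were both higher than IgG and lower than input, like Lamp1. IgG itself was lower than input for 19 of 29 (median -0.94), beside 19.4% of all genes. DESeq2 called 7 higher over IgG. Over input, 5 were lower without CPEB1 IP replicate 1, 6 without CPEB1 IP replicate 2, and without input replicate 2 there were 3 higher. IgG was lower than input for 12 without IgG replicate 2. Gaa, the lysosomal acid alpha-glucosidase, had 63.7 and 73.3 CPM in CPEB1 IP, 27.3 and 40.8 in IgG, with 203 and 188 in input, with input far above both precipitates. Of the 16 subunits and accessory proteins of the vacuolar ATPase, which acidifies the lysosome, 8 were higher and none lower over IgG (median 0.41), and 2 were higher and 4 lower over input (median 0.12), beside the same shares of all genes. Over IgG, 4 were higher without CPEB1 IP replicate 1, 2 without CPEB1 IP replicate 2 and 2 in DESeq2. Over input, 1 was higher with either CPEB1 IP library or input replicate 1 left out, 4 were higher without input replicate 2, and 2 were lower without CPEB1 IP replicate 2.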

How the data were processed

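The authors mapped reads from SMART-seq2 libraries (paired ends) to mm10 with HISAT2 and counted them on genes with featureCounts. They deposited raw counts and FPKM, one column for each library, with the IgG libraries in separate tables. The authors' FPKM divides the count by summed exon length and a library total larger than the counts on genes. The annotation release, strand setting and treatment of multiply mapped reads are not given in the sources used here. StringTie is also listed in the submitters' processing notes.

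The 40 genes, the other gene lists and the rules for naming genes were chosen with earlier results of these data known. Every member is accounted for, and from each other list up to 3 of the genes most changed over IgG with a mean FPKM over 1 could be named. Groups came from the labels, and every sample column was used. Counts were tested with edgeR 4.0.16 under R 4.3.3, using filterByExpr, TMM, and the quasi-likelihood test on 2 groups at a time, with Benjamini-Hochberg adjustment over all genes tested and a threshold of 0.05. The SE is the log2 fold change divided by the square root of F. Nothing in the labels says more of how the replicates were made than that they are biological replicates, so p-values measure the spread between these libraries, with 2 in each group. DESeq2 1.42.0 was the alternative count test. Tables and plots were made in Python 3.11.15 (matplotlib 3.10.9, pandas 2.3.3, scipy 1.17.1, numpy 2.4.6). Near-identical copies were transcripts of other genes with at least 95% identity over 200 bases (BLAST+ 2.17.0). Positions on mm10 were checked in GENCODE M21, where all 40 had the same position as in the tables.

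Tested on simulated counts, the test of CPEB1 IP against IgG recovered 55% of genes changed by a log2 fold of 1 and 92% of those changed by 2, that of CPEB1 IP against input 52% and 92%, and that of IgG against input 40% and 74%. In the simulation 100 genes were changed at each fold, equally in both directions, and all others had the same level in both groups. Far more genes were called in the data, so these rates may not hold there. Many differences reported here are smaller than 1. The FPKM ratio used a pseudocount of 1 and paired libraries by number, since the study's methods take the ratio of IP to IgG within each experiment. Deviations of same-numbered libraries from their group means correlated at -0.0107, -0.0206 and 0.0324 across 14276 genes. The alternatives were DESeq2 with and without a filter on low counts, RLE size factors, no TMM, no filter, the replicate number as a block, all 6 libraries in 1 fit, other pseudocounts, crossed pairs, and leaving out each library in turn. DESeq2 without a filter and the ratio with no pseudocount were added after the data were seen.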

Additional observations from a re-analysis of the deposited data

How the results depend on the processing

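Of 1316 alternative values for the 40 genes over the 3 comparisons, 1177 kept their call, 105 lost it, 33 gained it and 1 turned: Wipi2 over IgG, at a log2 fold change of 0.35 (adjusted p = 0.0467) with no filter on low counts, beside -0.05. Of 743 values past the threshold in neither fit, 73 changed sign. Under all 11 alternatives, 8 of the 14 calls over IgG held (Atg101, Map1lc3a, Map1lc3b, Gabarap, Gabarapl1, Sqstm1, Nbr1 and Lamp1), 7 of the 19 over input (Map1lc3a, Map1lc3b, Gabarapl1, Nbr1, Wipi2, Atg16l1 and Atg7) and 5 of the 16 for IgG over input. The cause of the changes was not tested.

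For CPEB1 IP against IgG, DESeq2 called 855 genes higher and 967 lower over all genes, and no autophagy gene lower. Counts without TMM gave 2 autophagy genes lower, and all 6 libraries in 1 fit gave 0. With no filter on low counts, 3513 of 42045 genes tested were higher, 0 autophagy genes lower, and the autophagy median was 0.67. DESeq2 without a filter, added after the data were seen, gave 984 of 42045 genes lower, 0 autophagy genes lower and a median of 0.54. Leaving out 1 library gave 1054 to 1783 genes higher and 677 to 1750 lower, 8 to 14 autophagy genes higher and 0 to 2 lower, and a median of 0.055 to 0.36. For the FPKM ratio, a pseudocount of 5 left 7 autophagy genes and TMM library sizes 2, with the same 7 and 2 when the count test was also required, and leaving out 1 experiment gave 14 to 17.

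For CPEB1 IP against input, DESeq2 called 5 autophagy genes lower, and without a filter 1230 genes higher and 1190 lower over all genes, and 4 autophagy genes lower. The autophagy median turned to -0.028 without TMM and to -0.00586 in 1 fit of all libraries, beside 0.04. Leaving out 1 library gave 957 to 2646 genes higher and 1064 to 2347 lower, 6 to 13 autophagy genes higher and 1 to 13 lower, and a median of 0.00049 to 0.075. For IgG against input, DESeq2 called 1695 genes higher and 1596 lower, with 5 autophagy genes lower, and without a filter 1188, 1602 and 5, with a median of -0.43. With no filter in edgeR that median was -0.56. Leaving out 1 library gave 1354 to 2170 genes higher and 1709 to 2400 lower, 2 to 3 autophagy genes higher and 5 to 11 lower, and a median of -0.32 to -0.18.

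With the replicate number as a block, 13 autophagy genes were higher and 1 lower over IgG, 11 higher and 8 lower over input, and 3 higher and 13 lower for IgG over input. The only call of an autophagy gene lost under the block was that of Sqstm1 over input. IgG had the fewest counts, and there were 2 libraries in each group.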
